A study of Mus musculus with 594 samples.

Results

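BRD-K22912318 is a code-named small molecule, 1 of 29 compounds tested in mouse pancreatic endocrine cell lines for effects on transcription through chromatin-modifying enzymes. Its arrays were chosen by the compound name in their titles, which gave 18 of the 594 arrays of the series. They hold 3 arrays in each of 2 lines, alpha-TC1 and beta-TC3, after 1, 6 and 24 h at 5 µM. The controls were 76 arrays of DMSO, the vehicle, with 14 in each alpha-TC1 group and 12, 10 and 12 in beta-TC3 at 1, 6 and 24 h. All cells were grown in low-glucose medium with serum and the labels name no treatment other than the compound or DMSO. Both lines come from tumours of transgenic mice in which a viral oncogene was driven by an islet hormone promoter, alpha-TC1 by that of glucagon and beta-TC3 by that of insulin, so each is 1 proliferating culture and not a primary islet cell. Nothing in the labels says whether replicates were separate cultures. P-values measure the spread between arrays, pooled over all compounds and DMSO in a fit, which may be technical. Each compound group spans 3 of 7 batches named in the titles, and batch was a term of every main fit.

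The labels name no target for BRD-K22912318. The series is built around inhibitors of histone deacetylases, enzymes that remove acetyl groups from lysines of histones and other proteins. Inhibitors of these enzymes are known to raise and lower many transcripts within hours and to slow the cell cycle. Alpha and beta cells share a set of transcription factors, among them Nkx2-2, Neurod1, Pax6 and Isl1, that maintain endocrine identity, while Irx1 and Irx2 mark alpha cells and Pdx1 marks beta cells.

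The DMSO arrays carried the markers of their lines. At 24 h, all 4 measured alpha cell markers lay above the median of all genes in alpha-TC1, led by glucagon (Gcg) at a mean log2 intensity of 12.32. In beta-TC3, 4 of 5 measured beta cell markers did so, led by Ins2 at 13.20, and the line also carried somatostatin (Sst) at 12.71 and Gcg at 8.79. Fibroblast and endothelial markers stayed at 3.16 or below in both lines, with and without compound. Of 6 exocrine and duct markers, 2 lay above the median of all genes in alpha-TC1 with DMSO. The highest was Krt7, at 7.31 with DMSO and 6.23 with the compound, and at 4.87 and 4.40 in beta-TC3. In alpha-TC1 the immune marker Cd68 was at 3.86 with DMSO and 5.34 with the compound. In bulk RNA, fewer cells of a type and less RNA per cell cannot be told apart. All levels below are log2 intensities of 1 probe set per gene, and they compare a gene with itself, not with another gene.

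After 1 h few transcripts had changed, and Txnip rose in both lines. Txnip encodes the thioredoxin-interacting protein, a glucose-responsive inhibitor of thioredoxin and of glucose uptake. In alpha-TC1 the limma fit called 9 of 11807 genes at an adjusted p under 0.05 (0.0762% of genes), of which 7 rose (0.0593%) and 2 fell (0.0169%). In beta-TC3 it called 11 (0.0932%), all of which rose, with 0 falls. At an unadjusted p under 0.05 the counts were 581 and 558.

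The 3 alpha-TC1 arrays at 1 h gave 8.30, 8.70 and 8.35 for Txnip, and the 14 DMSO arrays ranged from 6.47 to 7.94 with a median of 7.26. The groups did not overlap, and the fitted change was 1.35 on the log2 scale (SE 0.234, adjusted p = 5.27e-04). In beta-TC3 the arrays gave 7.68, 8.06 and 8.58 against 6.46 to 8.07 in DMSO (median 7.43). These groups overlapped, but each array lay above the mean of the DMSO arrays of its own batch, by 1.05, 1.12 and 1.14, and the fitted change was 0.96 (SE 0.134, adjusted p = 3.57e-06). Txnip stayed higher in alpha-TC1, by 1.12 at 6 h and 1.57 at 24 h, and in beta-TC3 by 0.75 at 6 h and 0.52 at 24 h. The last of these calls was lost without replicate 3, at 0.30.

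Sertad3, a transcriptional co-regulator, rose at 1 h by 1.19 in alpha-TC1 (SE 0.201, adjusted p = 5.27e-04) and by 0.91 in beta-TC3 (SE 0.156, adjusted p = 6.11e-04). Clp1, an RNA kinase of messenger and transfer RNA processing, rose by 1.11 and 0.69, and the zinc finger gene Zkscan14 by 0.88 and 0.65. These genes and Txnip made up the 4 rises shared by both lines, 57.1% of the alpha-TC1 rises and 36.4% of the beta-TC3 rises. Ier3, an immediate early gene, rose in beta-TC3 by 1.17 (SE 0.163, adjusted p = 3.57e-06), with 6.51, 6.77 and 6.97 on its 3 arrays and no DMSO array above 6.36. In alpha-TC1 its change was 0.32 (adjusted p = 0.906). The falls in alpha-TC1 were Dusp1, a phosphatase of MAP kinases, by 0.74 and Ccnl1, a cyclin of the splicing machinery, by 0.57.

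Many of the calls at 1 h depended on 1 array. Leaving out replicate 1 left 4 calls in alpha-TC1 and 3 in beta-TC3, and leaving out replicate 2 left 4 and 5. Txnip kept its call in both lines whichever array was left out, as did Zkscan14 in alpha-TC1 and Ier3 in beta-TC3. Sertad3 lost its call in both lines without replicate 1, at 1.04 and 0.69, and Clp1 without replicate 1, at 0.98 and 0.58, or replicate 2, at 0.97 and 0.69. Zkscan14 in beta-TC3 lost it without replicate 1 or 2, at 0.57 and 0.62, Dusp1 without replicate 2, at -0.68, and Ccnl1 without any 1 of the arrays, at -0.53 to -0.61. Of the genes that rose at 1 h, 6 of 7 in alpha-TC1 and 10 of 11 in beta-TC3 were also called higher at 6 h.

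Broad changes had set in by 6 h in both lines, and fewer genes were called at 24 h. In alpha-TC1 2304 genes rose (19.5% of genes) and 1762 fell (14.9%) at 6 h, 34.4% in all, and 1241 rose (10.5%) and 1529 fell (12.9%) at 24 h, 23.5% in all. In beta-TC3 2030 rose (17.2%) and 1856 fell (15.7%) at 6 h, 32.9% in all, and 1078 rose (9.13%) and 1045 fell (8.85%) at 24 h, 18% in all. With every array centred on its median, the split in alpha-TC1 at 6 h turned to 1733 higher and 2797 lower, as that scaling moved the median change of all genes from 0.008 to -0.113. Changes of at least 2-fold were fewer, with 399 rises and 261 falls in alpha-TC1 at 6 h, 168 and 178 at 24 h, and in beta-TC3 197 and 260 at 6 h, then 46 and 67. The beta-TC3 count at 24 h depended on replicate 3, without which 1275 genes were called in place of 2123.

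**Figure D1:**
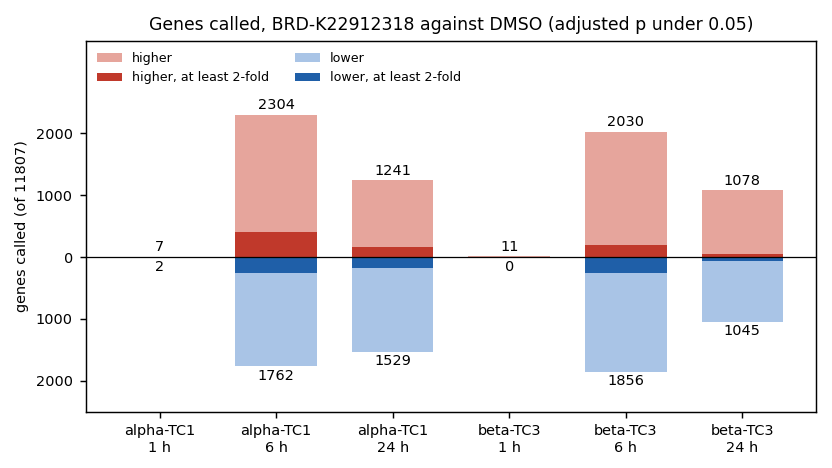
Number of genes called higher (above 0) and lower (below 0) with BRD-K22912318 than with DMSO at an adjusted p under 0.05 in limma, by line and time in hours, with the part that changed at least 2-fold in the darker shade. The 1 h bars hold 9 and 11 genes and the 6 h bars are the tallest in both lines.

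The lines shared much of the 6 h response. Of the genes that rose at 6 h, 1340 rose in both lines, 58.2% of the alpha-TC1 rises and 66.0% of those in beta-TC3. Of the falls, 1032 were shared, 58.6% and 55.6%. At 24 h 461 rises (37.1% and 42.8%) and 508 falls (33.2% and 48.6%) were shared. Across all genes the changes in both lines correlated with r = 0.66 at 6 h and 0.48 at 24 h, a description over genes, which are not independent replicates, of arrays that share batches. Within alpha-TC1, 915 of the 6 h rises (39.7%) and 940 of the falls (53.3%) were still called at 24 h, and within beta-TC3 672 (33.1%) and 667 (35.9%).

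A smaller set changed in the same direction in both lines at both later times: 304 genes rose (2.57% of genes) and 331 fell (2.80%). Among the rises were Rras, a small GTPase related to Ras, Metrn, which encodes the secreted neurotrophic protein meteorin, Gstt1, a glutathione transferase of the theta class, and Eaf2, a partner of the ELL elongation factors. Rsad2, an interferon-induced antiviral enzyme known as viperin, and Insl6, an insulin-like peptide, belonged to the set too. Among the falls were the thymidine kinase Tk1, the mitotic activator Cdc20, the liver-type phosphofructokinase Pfkl and the histone variant gene H2ax.

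Promoters are shown for 3 of the genes with the largest shared and sustained rises, ranked by the smallest change over both lines and times. These genes are the first 3 in that order among genes with a single promoter entry, with the genes of 1 chromosome left out. The windows shown are the 250 bases before the RefSeq start on the strand of the gene (GRCm38.p6). Capitals mark every match, on either strand, to the GC box GGGCGG, the motif CCAAT of the factor NF-Y, the TATA box TATAAA, the E-box CACGTG, the cyclic AMP element TGACGTCA, the antioxidant element TGACNNNGC and a core of the interferon-stimulated response element (ISRE). The windows are Metrn at chr17:25797046-25797295, Gstt1 at chr10:75797732-75797981 and Rsad2 at chr12:26456453-26456702, all on the minus strand.
Metrn: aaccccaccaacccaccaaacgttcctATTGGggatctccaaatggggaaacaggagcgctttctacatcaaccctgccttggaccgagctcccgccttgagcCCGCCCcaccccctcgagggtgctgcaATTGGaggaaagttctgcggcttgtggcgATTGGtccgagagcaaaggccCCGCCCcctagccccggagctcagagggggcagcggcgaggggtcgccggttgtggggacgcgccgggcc
Gstt1: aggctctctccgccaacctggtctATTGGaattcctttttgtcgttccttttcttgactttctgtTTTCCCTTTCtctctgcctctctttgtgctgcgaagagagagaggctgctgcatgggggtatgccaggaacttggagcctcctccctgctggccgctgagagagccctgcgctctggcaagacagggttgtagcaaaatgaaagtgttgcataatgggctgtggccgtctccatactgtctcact
Rsad2: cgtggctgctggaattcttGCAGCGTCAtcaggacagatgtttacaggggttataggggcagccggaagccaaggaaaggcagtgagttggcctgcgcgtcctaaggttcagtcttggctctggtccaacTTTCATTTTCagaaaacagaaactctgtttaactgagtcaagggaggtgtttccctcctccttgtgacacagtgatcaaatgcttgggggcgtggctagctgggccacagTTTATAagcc
The Metrn window held 2 matches to GGGCGG and 3 to CCAAT and was 65.6% G+C. The Gstt1 window held 1 match each to CCAAT and the ISRE, and that of Rsad2 1 each to TATAAA, TGACNNNGC and the ISRE. In 300-base windows with 50 bases after the start added, GGGCGG was present in 78.3% of the 198 promoters of the rising set that had 1 entry, in 63.2% of 209 in the falling set and in 57.1% of 7565 among all genes. CCAAT was present in 52.5%, 35.4% and 39.1%, TGACNNNGC in 9.6%, 20.1% and 14.2%, and the ISRE in 4.04%, 1.91% and 3.21%. Median G+C was 61.7%, 61% and 59%. TATAAA was in 5.56%, 6.7% and 11.2%, CACGTG in 10.1%, 14.8% and 9.31%, and TGACGTCA in 4.55%, 2.39% and 2.8%. These shares are descriptions, and a match is not shown to be a binding site.

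Rras was near the bottom of the scale in DMSO and higher at both later times. In alpha-TC1 at 6 h its arrays gave 7.22, 6.35 and 6.26 against 2.78 to 3.30 in DMSO (median 3.07), a change of 3.51 (SE 0.127, adjusted p = 4.72e-36). In beta-TC3 they gave 4.51, 5.77 and 5.59 against 2.82 to 3.62 (median 3.22), a change of 2.11 (SE 0.150, adjusted p = 3.12e-19). No compound array overlapped DMSO in either line, nor did any at 24 h, when the changes were 3.36 (SE 0.272) and 2.25 (SE 0.187). Genes were named among the largest changes only without such overlap, so it was fixed by the choice. The rise was larger in alpha-TC1, by 1.37 at 6 h (SE 0.200, adjusted p = 2.97e-08) and by 1.46 at 24 h (SE 0.350, adjusted p = 0.00151).

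Metrn rose by 2.44 (SE 0.120) in alpha-TC1 and 2.03 (SE 0.126) in beta-TC3 at 6 h, and by 1.78 and 1.51 at 24 h. The detoxifying enzyme gene Gstt1 was among the genes with a larger change at 24 h: in alpha-TC1 its arrays gave 7.95, 8.14 and 7.91 against 5.86 to 6.52 in DMSO (median 6.10), and in beta-TC3 7.71, 7.64 and 8.31 against 5.22 to 6.61 (median 5.96). The groups were apart in both lines, with changes of 1.82 (SE 0.156) and 2.02 (SE 0.176) after 1.39 and 1.44 at 6 h, although the difference between the times passed in neither line (adjusted p = 0.159 and 0.0982). Eaf2 rose by 3.08 and 1.98 at 6 h and by 2.08 and 1.25 at 24 h, more in alpha-TC1 at 6 h by 1.00 (SE 0.214, adjusted p = 2.27e-04).

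On the probe set used here Rsad2 rose in both lines and by more in alpha-TC1. In alpha-TC1 at 24 h its arrays gave 9.14, 10.33 and 9.14 against 4.39 to 5.63 in DMSO (median 4.86), a change of 4.41 (SE 0.375, adjusted p = 9.56e-15). In beta-TC3 they gave 5.25, 5.47 and 6.27 against 3.71 to 4.99 (median 4.28), a change of 1.52 (SE 0.189, adjusted p = 2.99e-09). The changes at 6 h were 3.74 and 1.08. The difference between the lines was 2.60 at 6 h (SE 0.288, adjusted p = 6.35e-13) and 3.22 at 24 h (SE 0.436, adjusted p = 6.87e-09). Insl6 went the other way at 6 h, with 1.13 in alpha-TC1 and 2.82 in beta-TC3, a difference of -1.70 (SE 0.218, adjusted p = 3.21e-10). At 24 h it had risen by 1.70 in each line, in beta-TC3 less than at 6 h by 1.08 (adjusted p = 4.31e-04).

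**Figure D2:**
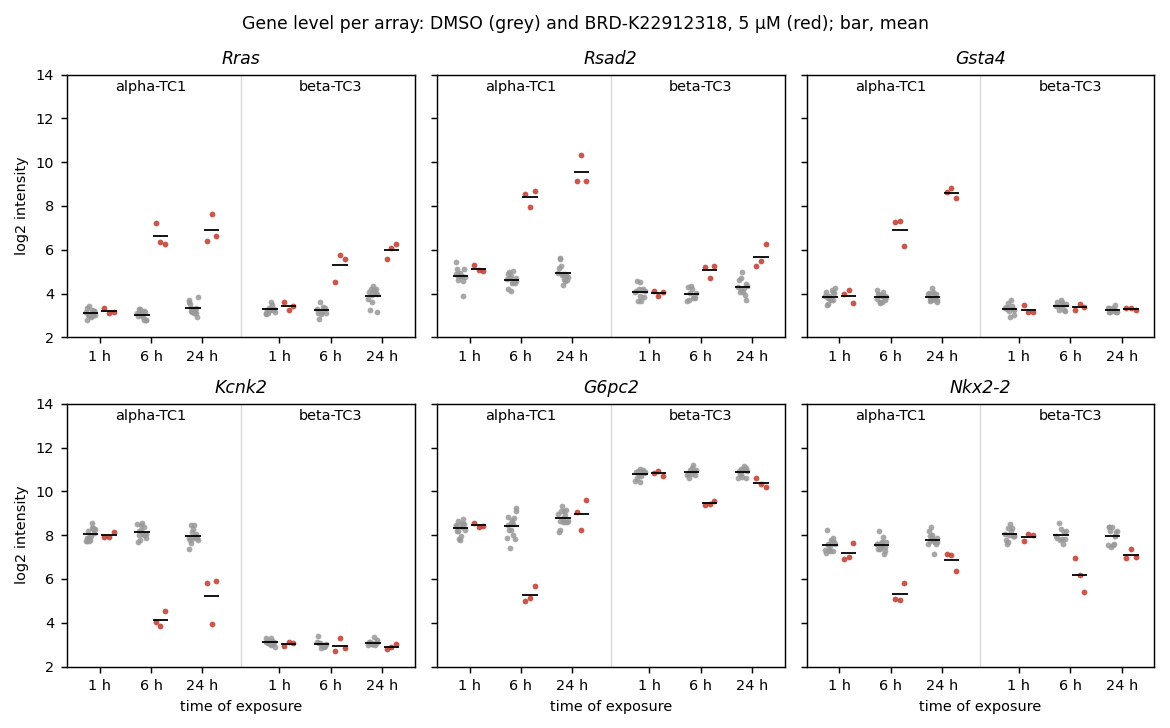
Log2 intensity of selected genes on each array by line and time in hours, with BRD-K22912318 arrays in red, DMSO arrays in grey and black bars for the means. Rras and Rsad2 lie apart from DMSO at 6 and 24 h in both lines, while Gsta4 and Kcnk2 do so in alpha-TC1 and overlap DMSO in beta-TC3 at 6 h.

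Genes of cell division fell in both lines. Of the 23 measured genes of a mitosis list, 18 fell in alpha-TC1 and 17 in beta-TC3 at 6 h and none rose, against 14.9% and 15.7% of all genes that fell. The median changes were -0.81 and -0.70, beside 0.01 for all genes in both. At 24 h 11 and 12 fell, against 12.9% and 8.85% of all genes. The medians were -0.34 and -0.33 beside -0.01 and -0.03 for all genes. Without replicate 2 in alpha-TC1 and without replicate 3 in beta-TC3, both of batch 4, the 24 h counts were 5 and 6. Of 22 measured DNA replication genes 15 fell in alpha-TC1 and 18 in beta-TC3 at 6 h. At 24 h 4 and 2 fell, and 2 rose in alpha-TC1, where 10.5% of all genes rose. These 24 h counts lie near the shares of all genes. The 24 h count in alpha-TC1 was 2 lower and 1 higher without replicate 1, and 4 lower and none higher without replicate 3.

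Tk1, which salvages thymidine for DNA synthesis, gave 6.12, 5.72 and 4.80 in alpha-TC1 at 6 h against 7.30 to 8.10 in DMSO (median 7.77). In beta-TC3 it gave 4.88, 5.97 and 5.41 against 7.52 to 8.18 (median 7.90). All compound arrays were below all DMSO arrays, with changes of -2.33 (SE 0.187, adjusted p = 1.85e-17) and -2.38 (SE 0.184, adjusted p = 1.10e-17). At 24 h the changes were -1.16 and -1.02, smaller by 1.16 in alpha-TC1 (SE 0.294, adjusted p = 0.00291) and by 1.40 in beta-TC3 (SE 0.254, adjusted p = 1.46e-05). The alpha-TC1 difference was 0.70 and not called without replicate 3. Rrm2, a subunit of ribonucleotide reductase, fell at 6 h by 1.86 and 1.29, and at 24 h its changes were -0.21 (adjusted p = 0.52) and -0.01 (adjusted p = 0.986). Its difference between the times was 1.60 in alpha-TC1 (adjusted p = 1.26e-07) and 1.39 in beta-TC3 (adjusted p = 1.61e-04). The helicase subunit Mcm7 fell at 6 h by 1.01 and 0.99 and was not called at 24 h, at -0.35 and -0.20.

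Several genes of mitosis and the cell cycle were lower at both times. Cdc20, which activates the anaphase-promoting complex, fell by 1.95 (SE 0.134) in alpha-TC1 and 1.25 (SE 0.105) in beta-TC3 at 6 h and by 1.17 (SE 0.204) and 1.16 (SE 0.147) at 24 h. The 3 arrays lay below all DMSO arrays in each of these groups. Aurka, a kinase of the mitotic spindle, fell by 1.50 and 0.98, then by 0.89 and 0.73, and Cdk4, a kinase of G1, by 1.43 and 0.98, then by 0.85 and 0.39. In beta-TC3 at 24 h neither was called without replicate 3, at -0.46 for Aurka and -0.16 for Cdk4. H2ax, whose protein marks DNA breaks when phosphorylated, fell by more at 24 h than at 6 h. Its alpha-TC1 arrays gave 5.37, 5.68 and 5.29 at 24 h against 7.05 to 7.91 in DMSO (median 7.56), and its beta-TC3 arrays 7.61, 8.03 and 7.98 against 8.79 to 9.77 (median 9.25). The falls were 0.76 and 0.69 at 6 h and 1.95 and 1.44 at 24 h, and the differences between the times were -1.25 (adjusted p = 2.58e-05) and -0.77 (adjusted p = 1.16e-04).

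Genes for inhibitors of the cell cycle kinases changed in both directions at 6 h. Of 7 measured genes 3 rose and 2 fell in alpha-TC1 at 6 h, or 1 and 1 without replicate 1 or 3, and 1 rose and 2 fell in beta-TC3, beside 19.5% of all genes that rose and 14.9% that fell in alpha-TC1 and 17.2% and 15.7% in beta-TC3. At 24 h 1 rose in each line, a call lost without replicate 2 in beta-TC3. Cdkn1a, which encodes p21, gave 8.38, 8.20 and 8.59 in alpha-TC1 at 6 h, all within the DMSO range of 7.61 to 8.64. Its change of 0.35 (SE 0.142, adjusted p = 0.0471) was not called without any 1 of the arrays, at 0.32 to 0.37. Its other changes were 0.04 in beta-TC3 at 6 h and 0.34 and -0.03 at 24 h, none called. The other Cdkn1a probe set gave -0.05 in alpha-TC1 and -0.42 in beta-TC3 at 6 h, and 0.27 and -0.16 at 24 h. Cdkn1b, which encodes p27, fell in alpha-TC1 at 6 h by 0.70, and the change was -0.34 and not called without replicate 1.

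Cholesterol synthesis genes rose together at 6 h and mostly no longer at 24 h. Of 16 measured genes 12 rose in alpha-TC1 and 11 in beta-TC3 at 6 h, with no falls, beside 19.5% and 17.2% of all genes that rose. Without the batch term the beta-TC3 count was 5. Their median changes were 0.74 and 0.56, and at 24 h 0.16 and -0.01, with 4 rises in alpha-TC1 and 1 rise and 2 falls in beta-TC3. The 24 h count in alpha-TC1 was 2 without replicate 1. The changes at 6 h in alpha-TC1 and beta-TC3 were 1.42 and 0.86 for Dhcr7, the last enzyme of the pathway, 1.31 and 1.19 for Hsd17b7, a sterol ketone reductase, 1.13 and 0.57 for Msmo1, a sterol methyl oxidase, and 1.11 and 0.73 for mevalonate kinase (Mvk). Dhcr7 in alpha-TC1 was back at -0.05 by 24 h, a difference between the times of -1.56 (SE 0.313, adjusted p = 1.07e-04), and Hsd17b7 in beta-TC3 at 0.03, a difference of -1.22 (SE 0.247, adjusted p = 1.05e-04). Tm7sf2, a sterol reductase, changed by more at 24 h. It rose by 0.81 and 0.65 at 6 h and by 1.54 (SE 0.139) and 1.64 (SE 0.146) at 24 h, a difference of 0.64 in alpha-TC1 (adjusted p = 0.00847) and 0.93 in beta-TC3 (adjusted p = 1.34e-04). Without replicate 1 or 3 the alpha-TC1 difference was 0.58 or 0.59 and not called. Acss2, which makes acetyl-CoA from acetate, rose by 1.31 and 1.42 at 6 h and by 0.38 and 0.80 at 24 h. Its 24 h call in alpha-TC1 was lost without replicate 2, at 0.27, or 3, at 0.39.

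The transcription factors of endocrine identity fell at 6 h in both lines, and several were no longer called at 24 h. Nkx2-2, a homeobox factor needed for islet cell fate, gave 5.08, 5.05 and 5.82 in alpha-TC1 at 6 h against 7.12 to 8.21 in DMSO (median 7.54), and 6.95, 6.19 and 5.41 in beta-TC3 against 7.60 to 8.54 (median 7.91). Neither line overlapped DMSO, and the changes were -2.11 (SE 0.180, adjusted p = 2.17e-16) and -1.75 (SE 0.200, adjusted p = 3.24e-11). At 24 h they were -0.86 and -0.74, and without replicate 1 the latter was -0.54 and not called. The change moved toward 0 between the times by 1.20 in alpha-TC1 (adjusted p = 0.0018) and 0.92 in beta-TC3 (adjusted p = 0.0169). These differences were not called in alpha-TC1 without replicate 1, at 0.88, or in beta-TC3 without replicate 2, at 0.91, or 3, at 0.55.

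Isl1, a LIM-homeobox factor, fell at 6 h by 0.97 (SE 0.091) in alpha-TC1 and 0.75 (SE 0.112) in beta-TC3, with every compound array below the DMSO arrays. At 24 h its changes were 0.18 and 0.05, neither called, and the difference between the times was 1.14 (adjusted p = 8.30e-09) and 0.79 (adjusted p = 9.62e-06). Neurod1, a helix-loop-helix factor, fell by 1.05 and 1.07 and stood at 0.48 (adjusted p = 0.0685) and -0.19 at 24 h, when its probe sets ranged from -0.19 to 0.19 in beta-TC3, differences of 1.65 (adjusted p = 3.80e-06) and 0.90 (adjusted p = 0.0133). The beta-TC3 difference was not called without replicate 1, at 0.57, or 3, at 0.89. Pax6 fell by 0.82 and 0.95 and Foxa2 by 0.91 and 0.69 at 6 h. At 24 h Foxa2 was at 0.12 and 0.07 and Pax6 at 0.07 in alpha-TC1, while Pax6 was still lower in beta-TC3 by 0.44, a call lost without replicate 3, at -0.25.

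Of 15 measured beta cell markers 8 fell and 1 rose in beta-TC3 at 6 h and 4 fell at 24 h, or 1 without replicate 1, with medians of -0.62 and -0.23. The list includes Nkx2-2 and Neurod1, named above as shared by alpha and beta cells, and G6pc2, which both lines carried. The shares of all genes that fell in beta-TC3 were 15.7% and 8.85%. In alpha-TC1 5 markers fell and 1 rose at 6 h and 3 fell and 1 rose at 24 h, where 14.9% and 12.9% of all genes fell, and the 24 h count lies near that share. Of 7 measured alpha cell markers 4 fell in alpha-TC1 at 6 h, and 1 fell and 2 rose at 24 h, with medians of -0.82 and 0.03. In beta-TC3 1 of them rose at 6 h and 3 fell at 24 h, or 1 without replicate 3.

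Factors that mark 1 of the lines fell there. In beta-TC3 Pdx1, the main activator of the insulin gene, gave 8.87, 8.67 and 7.92 at 6 h against 9.14 to 9.63 in DMSO (median 9.51), a change of -0.99 (SE 0.128, adjusted p = 1.46e-09). At 24 h it was at -0.08, a difference of 0.89 (SE 0.189, adjusted p = 2.41e-04). Pax4, a repressor of the alpha cell program, fell in beta-TC3 by 1.80 at 6 h and 0.73 at 24 h, a difference of 1.03 (adjusted p = 0.00991). The 24 h call was lost without replicate 1 or 3, at -0.68 in each, and the difference without replicate 2 or 3, at 0.97 and 0.99. In alpha-TC1 Irx1 gave 6.14, 5.76 and 5.87 at 6 h against 7.07 to 7.64 in DMSO (median 7.32), a change of -1.37 (SE 0.134, adjusted p = 5.18e-14), which differed from that in beta-TC3 by -1.83 (adjusted p = 6.35e-13). At 24 h it was lower by 0.59. Irx2 fell by 0.93 at 6 h and was at -0.15 at 24 h. Pou3f4, which binds the glucagon promoter, fell by 0.82 at 6 h and rose by 0.87 at 24 h, a difference of 1.74 (SE 0.350, adjusted p = 1.16e-04). The 24 h rise was not called without replicate 2, at 0.64, or 3, at 0.84.

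**Figure D3:**
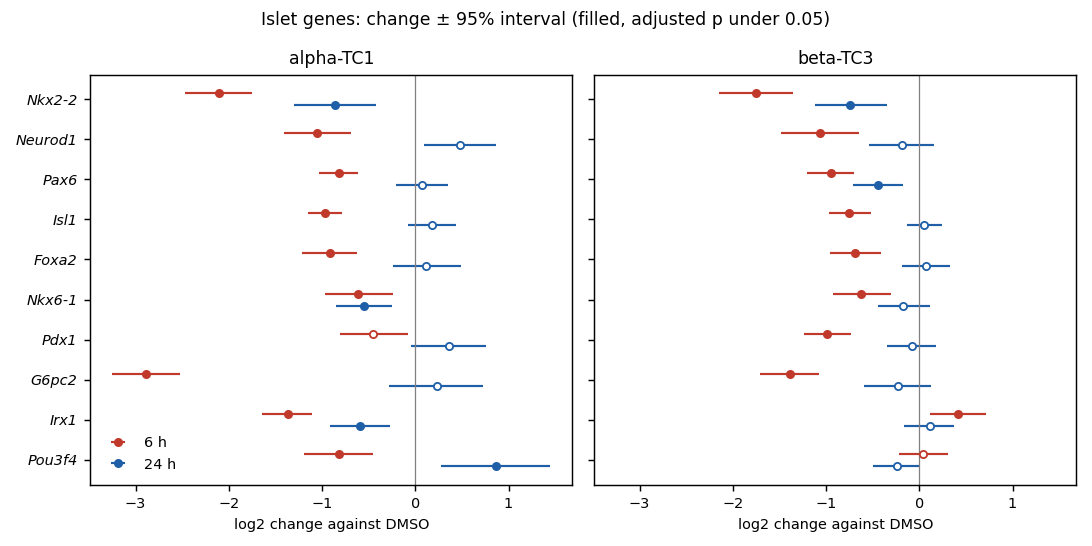
Change in log2 intensity with BRD-K22912318 against DMSO for islet transcription factors and G6pc2, by line and time in hours, with bars for the 95% confidence interval of the fit and filled points for an adjusted p under 0.05. Nkx2-2 is at -2.11 and -1.75 at 6 h and at -0.86 and -0.74 at 24 h, and Isl1 returns to 0.18 and 0.05.

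The main hormone genes of both lines changed by less than 0.5 log2 units. Ins2 in beta-TC3 gave 12.96, 13.21 and 13.24 at 6 h, 1 array under and the others within the DMSO range of 13.19 to 13.49, and its changes were -0.10 at 6 h (95% interval -0.21 to 0.01) and -0.13 at 24 h, not called (adjusted p = 0.164). These levels are close to the top of the measured scale. Gcg in alpha-TC1 changed by -0.12 at 6 h and rose by 0.47 at 24 h (SE 0.109, adjusted p = 5.62e-04), with 12.71, 12.72 and 12.93 against 11.90 to 12.74 in DMSO, so that the groups overlapped. In beta-TC3, where Gcg differed widely between DMSO arrays at 24 h (6.18 to 10.43), it fell by 0.88 (adjusted p = 5.21e-04). Its arrays there gave 9.57, 9.30 and 5.91, and without the batch term the change was -0.53 and not called. Sst in beta-TC3 changed by -0.01 and 0.09 and was not called, and gastrin (Gast) fell by 0.51 and 0.93. The 6 h fall of Gast was -0.26 and not called without replicate 1.

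G6pc2, the islet glucose-6-phosphatase that opposes glucokinase, fell at 6 h and was not called at 24 h. In alpha-TC1 at 6 h its arrays gave 5.00, 5.13 and 5.70 against 7.40 to 9.25 in DMSO (median 8.49), a change of -2.89 (SE 0.183, adjusted p = 2.98e-22). At 24 h they gave 9.06, 8.23 and 9.59 against 8.15 to 9.31 (median 8.71), a change of 0.23 (95% interval -0.28 to 0.73), with 1 array above the DMSO range and the others within it. The difference between the times was 3.01 (SE 0.367, adjusted p = 4.11e-10). In beta-TC3 at 6 h the arrays gave 9.38, 9.40 and 9.57 against 10.61 to 11.22 (median 10.87), a change of -1.39 (SE 0.157, adjusted p = 1.86e-11), and at 24 h the change was -0.23, with 2 of the 3 arrays below the lowest DMSO array. The difference between the times there was 0.99 (adjusted p = 0.00382), which was 0.87 and not called without replicate 2. The 6 h fall was larger in alpha-TC1, by a difference of -1.54 (SE 0.307, adjusted p = 6.31e-05). The arginine transporter gene Slc7a2 followed the same course in alpha-TC1, with -1.51 at 6 h and -0.14 at 24 h.

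The change differed between the lines at 1640 genes at 6 h (13.9% of genes), with the alpha-TC1 change higher at 938 (7.94%) and lower at 702 (5.95%), and at 1420 at 24 h (12%), 607 higher (5.14%) and 813 lower (6.89%). Without replicate 1 the 6 h count was 963, and without replicate 1 or 3 the 24 h counts were 905 and 818. At 1 h the only difference called was in Mt4, a metallothionein (0.00847%), and 555 genes had an unadjusted p under 0.05. Between the times 1354 changes differed in alpha-TC1 (11.5%) and 1485 in beta-TC3 (12.6%), and the former count was 671 without replicate 1 and 832 without replicate 3.

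Some of the largest changes were seen in alpha-TC1 with none called in beta-TC3. Gsta4, a glutathione transferase that clears products of lipid peroxidation, gave 8.62, 8.81 and 8.34 in alpha-TC1 at 24 h against 3.63 to 4.24 in DMSO (median 3.77), a change of 4.67 (SE 0.287, adjusted p = 4.31e-21). In beta-TC3 it gave 3.33, 3.35 and 3.27 against 3.15 to 3.46 (median 3.26), a change of -0.07. The lines differed by 3.14 at 6 h (adjusted p = 1.12e-18) and 4.69 at 24 h (SE 0.319, adjusted p = 6.26e-26), and the alpha-TC1 rise grew by 1.70 between the times (adjusted p = 3.02e-04). Selenop, the selenium carrier protein, rose in alpha-TC1 by 1.82 and 2.63, and differed between the lines by 2.03 (adjusted p = 3.53e-07) and 2.77 (adjusted p = 8.25e-08). The alpha globin gene Hba-a1 rose in alpha-TC1 by 0.73 at 6 h, a call lost without replicate 1 at 0.40, and by 2.91 at 24 h, when its arrays gave 7.0, 7.67 and 7.17 against 3.74 to 4.5 in DMSO. Its change grew by 2.20 between the times (adjusted p = 5.93e-07), and the lines differed by 3.13 at 24 h (SE 0.356, adjusted p = 1.07e-11).

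Kcnk2, a potassium channel of the two-pore family, fell in alpha-TC1 at both times. Its arrays gave 4.03, 3.87 and 4.53 against 7.70 to 8.55 in DMSO (median 8.04), a change of -3.78 (SE 0.167, adjusted p = 6.10e-31). At 24 h the change was -2.37 (SE 0.277). In beta-TC3 Kcnk2 lay between 2.71 and 3.40 on all compound and DMSO arrays at 6 h, near the lowest levels measured. The lines differed by -3.86 at 6 h (adjusted p = 2.50e-35) and -2.57 at 24 h (adjusted p = 1.18e-09). Cryba2, a crystallin gene expressed in endocrine cells, fell in both lines, with -0.88 and -0.84 at 6 h and -2.62 and -1.37 at 24 h.

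Rbpms, an RNA-binding protein, fell in both lines and by more in beta-TC3 on the probe set used here. At 6 h its beta-TC3 arrays gave 3.74, 4.0 and 3.80 against 6.28 to 6.93 in DMSO (median 6.56), a change of -2.70 (SE 0.154, adjusted p = 1.00e-23), and at 24 h the change was -2.09. The changes of its probe sets ranged from -2.70 to 0.36 at 6 h and from -2.09 to 0.30 at 24 h in beta-TC3, and from -0.51 to 0.14 at 6 h in alpha-TC1. In alpha-TC1 it was lower by 0.51 and 0.45, the latter lost without replicate 1, at -0.42, or 2, at -0.33. The groups were apart in both lines, and the changes differed by 2.18 at 6 h (SE 0.209, adjusted p = 3.72e-16) and 1.69 at 24 h (adjusted p = 4.74e-10). Cela1, an elastase made mainly by the exocrine pancreas, was measured well above the floor in alpha-TC1, where its arrays gave 3.97, 3.37 and 3.97 at 24 h against 5.41 to 6.54 in DMSO (median 6.14). It fell there by 1.23 at 6 h and 2.08 at 24 h (SE 0.221, adjusted p = 1.15e-11), and the lines differed by -1.18 (adjusted p = 3.09e-04) and -2.19 (adjusted p = 6.02e-11). In beta-TC3 it lay between 2.74 and 3.25 on the compound and DMSO arrays at 24 h.

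A few genes went opposite ways in the lines at both times, 14 in all of the genes called in all 4 comparisons. Deptor, an inhibitor of mTOR kinase, gave 7.29, 7.40 and 6.95 in alpha-TC1 at 6 h against 8.04 to 8.80 in DMSO, and 6.73, 7.92 and 7.46 in beta-TC3 against 5.89 to 6.63. It thus fell by 1.10 and rose by 1.26, with no overlap in either line and a difference of -2.34 (SE 0.277, adjusted p = 1.31e-11), and at 24 h by -1.77 (adjusted p = 2.33e-05), with -1.0 and 0.85. The alpha-TC1 call at 24 h was lost without replicate 1, at -0.82. Tacc2, a microtubule-binding protein, rose in alpha-TC1 by 1.36 and 1.30 and fell in beta-TC3 by 1.48 and 0.89, differences of 2.77 (adjusted p = 3.20e-13) and 2.76 (adjusted p = 8.25e-08). Mlxipl, the glucose-responsive factor ChREBP, rose by 0.71 and 0.59 in alpha-TC1 and fell by 1.04 and 0.70 in beta-TC3. Its 24 h rise was 0.41 and not called without replicate 2.

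Immune and lysosomal genes were counted in each line, and the difference between the lines was tested for single genes and not for the lists. Beside these counts stand the shares of all genes. In alpha-TC1 19.5% rose at 6 h and 10.5% at 24 h, and in beta-TC3 17.2% and 9.13%. The shares that fell were 14.9% and 12.9%, then 15.7% and 8.85%. Of 8 measured antigen presentation genes 5 rose and none fell in alpha-TC1 at each time, and the medians were 0.69 and 0.84. In beta-TC3 3 rose and 1 fell at 6 h, and 2 rose and 1 fell at 24 h, with medians of -0.05 and -0.12. Without replicate 1 the beta-TC3 counts were 1 and 1 at 6 h and 2 and 3 at 24 h. Tapbp, which loads peptides onto class I molecules, gave 8.24, 8.29 and 7.44 in alpha-TC1 at 24 h against 6.03 to 7.07 in DMSO, a rise of 1.27 (SE 0.152, adjusted p = 6.70e-10). It was higher than the beta-TC3 change by 1.14 (SE 0.200, adjusted p = 7.79e-06). H2-T23, a non-classical class I gene, rose in both lines, by 1.44 and 0.60 at 6 h and 1.66 and 1.37 at 24 h, but the probe sets of the gene ranged from -0.12 to 1.66 in alpha-TC1 at 24 h. Psmb8, a subunit of the immunoproteasome, fell in beta-TC3 by 0.64 and 0.98, and the lines differed by 1.00 at 24 h (adjusted p = 5.93e-04), or 0.69 and not called without replicate 3.

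Of 14 measured interferon response genes, which include Rsad2 and Psmb8, 7 rose at 6 h and 4 at 24 h in alpha-TC1, with no falls and medians of 0.31 and 0.21, and in beta-TC3 3 rose and 3 fell at each time, with medians of 0.18 and -0.07. Without replicate 3 the 24 h falls in beta-TC3 were 1. Usp18, which removes the ISG15 tag and damps interferon signalling, rose in alpha-TC1 by 1.02 and 0.87, and in beta-TC3 its changes were -0.14 (not called) and -0.49, the latter lost without replicate 3 at -0.28. The lines differed by 1.35 (SE 0.227, adjusted p = 1.85e-06) and 1.68 (SE 0.241, adjusted p = 3.77e-08). Of 16 lysosome and autophagy genes 7 rose and 1 fell at 6 h and 8 rose at 24 h in alpha-TC1, with medians of 0.18 and 0.40. In beta-TC3 4 and 2 rose, near the shares of all genes, with medians of 0.10 and 0.09, and without replicate 1 or without replicate 2 the 6 h count was 1. Ctsl, the protease cathepsin L, gave 11.54, 11.39 and 11.33 in alpha-TC1 at 24 h against 9.30 to 10.41 in DMSO, a rise of 1.37 (SE 0.128, adjusted p = 1.65e-13) after 0.96 at 6 h. In beta-TC3 it changed by 0.23 at 6 h, a call lost without any 1 of the arrays at 0.22 to 0.24, and by 0.19 at 24 h, and the lines differed by 0.89 (adjusted p = 1.34e-05) and 1.49 (SE 0.182, adjusted p = 2.22e-10). The cholesterol carrier Npc2 rose in alpha-TC1 by 0.68 and 0.64 and the lysosomal membrane protein Lamp1 by 0.21 and 0.57. The 6 h call of Lamp1 was lost without replicate 3, at 0.18. Cd68, a lysosomal glycoprotein listed as an immune cell marker, rose in alpha-TC1 at 24 h by 1.27 (SE 0.270, adjusted p = 1.59e-04) and differed between the lines by 1.55 (adjusted p = 1.15e-04), while the other immune marker, Ptprc, was at 2.67 with the compound and 2.81 in DMSO. The Cd68 groups overlapped, as 1 compound array was at 4.79 and the highest DMSO array at 4.83, and its part in the lysosomal and immune changes was not tested. Of 16 measured markers of exocrine, duct and other non-endocrine cells, 2 fell in alpha-TC1 at each time, near the 14.9% and 12.9% of all genes. Cd68 alone rose, and none of the markers was called in beta-TC3.

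Genes of metabolism changed in both directions. Pfkl, which commits glucose to glycolysis, gave 6.39, 4.90 and 5.54 in alpha-TC1 at 24 h against 6.84 to 8.34 in DMSO (median 7.31), and 6.65, 6.39 and 6.11 in beta-TC3 against 7.67 to 8.69 (median 8.29). All compound arrays were below DMSO, with changes of -1.99 (SE 0.266, adjusted p = 1.49e-08) and -1.57 (SE 0.194, adjusted p = 2.76e-09) after -0.96 and -0.93 at 6 h. The change in alpha-TC1 differed between the times by -1.04 (adjusted p = 0.015), and the difference was -0.56 and not called without replicate 2. Beside the list counts of this paragraph, 19.5% of all genes rose and 14.9% fell in alpha-TC1 at 6 h, and 17.2% and 15.7% in beta-TC3. At 24 h the shares of all genes were 10.5% and 12.9%, then 9.13% and 8.85%. Of 16 measured glycolysis and glucose response genes 6 rose and 1 fell in alpha-TC1 at 6 h and 5 and 1 in beta-TC3, and 2 rose and 2 fell, then 1 and 4, at 24 h. The alpha-TC1 counts at 24 h lie near the shares of all genes. The 24 h falls in beta-TC3 were 1 without replicate 3 and those in alpha-TC1 were 5 without replicate 1. Lactate dehydrogenase (Ldha) was among the beta-TC3 falls at -1.84, but its DMSO arrays ranged from 3.04 to 8.16, and its change was -1.24 and not called without replicate 3. In a list of 10 measured fatty acid genes 4 rose and 5 fell in alpha-TC1 at 6 h and 4 and 3 in beta-TC3, and 1 rose and 4 fell, then 2 and 3, at 24 h. The beta-TC3 falls at 24 h were 1 without replicate 3. Elovl5, an elongase of polyunsaturated fatty acids, rose by 1.04 and 1.15 at 6 h and by 0.58 in beta-TC3 at 24 h. The desaturase Fads2 fell by 0.78 and 0.97 at 6 h and by 0.75 and 0.45 at 24 h, the last lost without replicate 3 at -0.21. Fatty acid synthase (Fasn) fell at 24 h by 1.00 and 0.59.

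Of 14 measured genes of the oxidative stress response 6 rose in alpha-TC1 at each time, with 1 and 2 falls, or 4 rises at 6 h without replicate 1 or 2. In beta-TC3 3 rose and 3 fell at 6 h, or 1 and 1 without the batch term, and 1 rose and 2 fell at 24 h. Of all genes 19.5% and 10.5% rose in alpha-TC1 at 6 and 24 h, and in beta-TC3 17.2% and 9.13% rose and 15.7% and 8.85% fell, so the beta-TC3 counts lie near those of all genes. Gstk1, a glutathione transferase of mitochondria and peroxisomes, gave 7.39, 7.60 and 7.37 in alpha-TC1 at 24 h against 5.26 to 6.49 in DMSO, and 5.71, 6.06 and 4.98 in beta-TC3 against 3.41 to 4.28. The groups were apart in both lines, with rises of 1.56 (SE 0.208, adjusted p = 1.29e-08) and 1.65 (SE 0.206, adjusted p = 3.49e-09). At 6 h the changes were 0.69 and 0.28, the latter not called, and the difference between the times was 0.91 (adjusted p = 0.0119) and 1.49 (adjusted p = 8.96e-06). The alpha-TC1 difference was not called without replicate 1 or 3, at 0.96 and 0.81.

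Genes of the stress response of the endoplasmic reticulum and of amino acid shortage changed in both directions at 6 h. Of 19 measured genes 6 rose and 3 fell in alpha-TC1 at 6 h, with 1 fall in place of 3 without replicate 3, and 1 rose and 9 fell at 24 h, with medians of 0.09 and -0.36. In beta-TC3 2 rose and 6 fell at 6 h, and 9 fell at 24 h, with medians of -0.09 and -0.35. At 6 h 19.5% of all genes rose and 14.9% fell in alpha-TC1, and 17.2% and 15.7% in beta-TC3. The 6 h falls in alpha-TC1 and rises in beta-TC3 lie near or below these shares. At 24 h 12.9% and 8.85% of all genes fell. Without the batch term the 24 h falls in beta-TC3 were 5. Atf5, a stress-induced transcription factor, fell by 0.84 and 0.65 at 6 h and by 1.51 (SE 0.159) and 1.37 (SE 0.153) at 24 h. Herpud1, part of the pathway that degrades misfolded proteins, fell by 0.37 and 0.61, then by 1.00 and 0.78, and its 6 h fall in alpha-TC1 was lost without replicate 3, at -0.25. Chac1, which breaks down glutathione, rose by 0.89 (SE 0.134) in alpha-TC1 at 6 h and fell by 1.03 (SE 0.193) at 24 h. The change between the times was -1.91 (SE 0.239, adjusted p = 8.60e-10). Hmox1, the heme oxygenase induced by oxidative stress, rose in alpha-TC1 by 1.59 and 1.27.

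Of 22 immediate early genes 9 rose and 2 fell in alpha-TC1 at 6 h, but 5 and 1 without replicate 1, and 8 rose at 24 h, with medians of 0.08 and 0.22. In beta-TC3 4 rose and 3 fell at 6 h, or 2 and 3 without replicate 3, and 2 rose and 1 fell at 24 h, with medians of -0.01 and -0.11. Of all genes 19.5% and 10.5% rose in alpha-TC1 and 17.2% and 9.13% in beta-TC3, where the counts of this list lie near those of all genes. Fos, a subunit of the AP-1 factor, gave 6.60, 6.66 and 6.48 in alpha-TC1 at 24 h against 3.56 to 6.03 in DMSO, a rise of 1.41 (SE 0.256, adjusted p = 1.26e-05). Its change in beta-TC3 was -0.15, and the lines differed by 1.66 (SE 0.377, adjusted p = 7.35e-04). Egr1, a zinc finger factor of the same class of early genes, rose in both lines, by 1.18 and 0.66 at 6 h and 0.93 and 1.20 at 24 h. In alpha-TC1 at 24 h it was 0.59 and not called without replicate 2. Of 16 p53 target genes 9 rose in beta-TC3 at 6 h, and 5 rose and 2 fell in alpha-TC1, near the shares of all genes, with medians of 0.26 and 0.07. The alpha-TC1 rises were 3 without replicate 2 and 2 without replicate 3, and with arrays centred on their medians 2 rose and 4 fell. At 24 h 3 rose in beta-TC3, or 1 without replicate 3, and 1 fell in alpha-TC1, with medians of 0.14 and -0.03. Trp53inp1, a stress-induced partner of p53, rose in beta-TC3 by 1.41 (SE 0.164, adjusted p = 6.58e-11) at 6 h and 0.82 at 24 h. Its other probe set changed there by 0.29 at 6 h and 0.07 at 24 h.

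**Figure D4:**
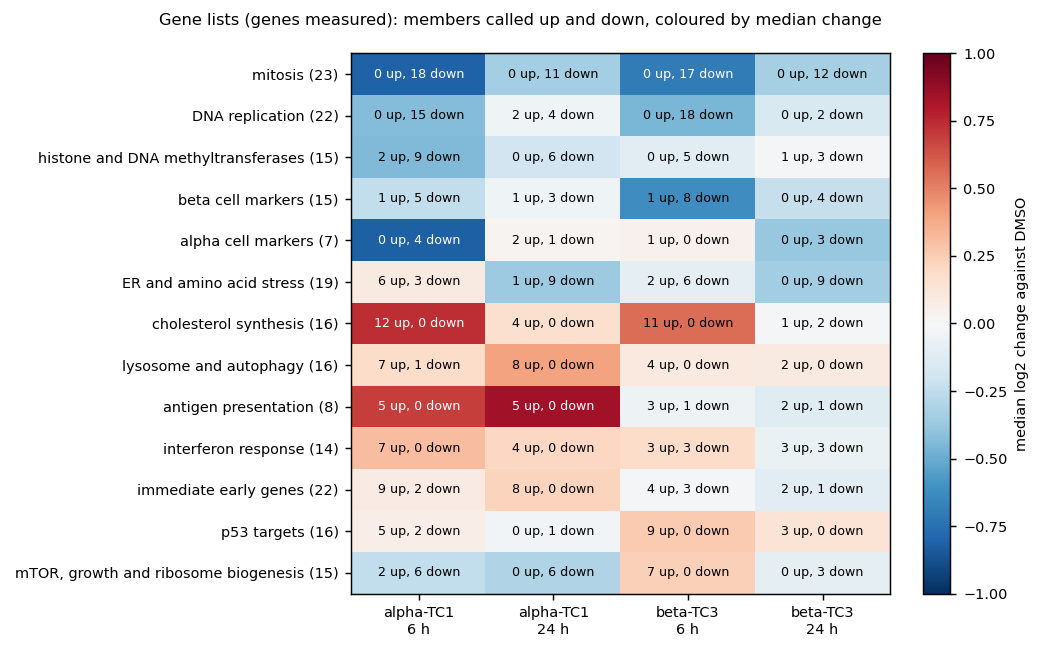
Gene lists, with the number of genes measured in brackets, as rows and each line at 6 and 24 h as columns. The text in a cell gives the members called higher and lower than with DMSO, and its colour the median log2 change of the list. The mitosis list has medians of -0.81 and -0.70 at 6 h, and the cholesterol synthesis list 0.74 and 0.56.

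Genes for chromatin enzymes were counted in the same way. Of 10 measured histone deacetylases and sirtuins 5 rose in each line at 6 h, with 1 and 2 falls, and at 24 h 2 rose and 2 fell in alpha-TC1 and 1 rose in beta-TC3. Of all genes 19.5% and 17.2% rose at 6 h and 10.5% and 9.13% at 24 h, and the 24 h counts of this list lie near those of all genes. The medians were 0.23 and 0.19 at 6 h and -0.09 and 0.13 at 24 h. Without replicate 2 the alpha-TC1 counts at 24 h were 0 and 1. Hdac1, a class I deacetylase, gave 9.39, 9.70 and 9.40 in alpha-TC1 at 6 h against 8.36 to 8.66 in DMSO, a rise of 0.94 (SE 0.081, adjusted p = 3.32e-16). In beta-TC3 it gave 9.37, 9.59 and 9.41 against 8.77 to 9.15, a rise of 0.43 (SE 0.076, adjusted p = 2.54e-06). The rise was larger in alpha-TC1 by 0.48 (adjusted p = 0.00175), and at 24 h it was 0.37 there, or 0.31 and not called without replicate 2. Hdac11, the class IV member, rose in beta-TC3 by 1.30 (SE 0.165) at 6 h and 0.79 at 24 h and in alpha-TC1 by 0.76 at 6 h.

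Of 15 methyltransferases and related enzymes 9 fell and 2 rose in alpha-TC1 at 6 h and 5 fell in beta-TC3, and at 24 h 6 and 3 fell, with 1 rise in beta-TC3. The shares of all genes that fell were 14.9% and 15.7% at 6 h and 12.9% and 8.85% at 24 h. Those that rose were 19.5% and 17.2% at 6 h and 10.5% and 9.13% at 24 h. The medians were -0.44 and -0.11 at 6 h and -0.19 and -0.02 at 24 h. The 24 h falls were 3 in alpha-TC1 without replicate 1 and 1 in beta-TC3 without replicate 2. Dnmt1, which copies DNA methylation at replication, fell at 6 h by 0.97 (SE 0.144) and 1.13 (SE 0.118), and at 24 h by 0.36 in alpha-TC1, where the change was -0.12 and not called without replicate 2. Prmt1, an arginine methyltransferase, fell by 0.94 and 0.91 at 6 h and by 1.22 and 0.71 at 24 h, and the last of these was -0.30 and not called without replicate 3. Kat2b, an acetyltransferase, fell in alpha-TC1 by 1.50 (SE 0.128) and 1.26 (SE 0.190). In beta-TC3 it fell by 0.55 at 6 h and was at -0.24 at 24 h, when the lines differed by -0.86 (adjusted p = 0.00529), a difference of -0.76 without replicate 2 and -0.77 without replicate 3, neither called. Of 15 ribosome biogenesis and growth genes 7 rose in beta-TC3 at 6 h with no falls, and 2 rose and 6 fell in alpha-TC1. Their medians were 0.24 and -0.25, and the alpha-TC1 rises lie below the share of all genes. At 24 h 6 fell in alpha-TC1 and 3 in beta-TC3, or 1 without replicate 2, with medians of -0.30 and -0.09.

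The compound was compared with others of the series at the doses used, which were not equal: 5 µM for BRD-K22912318, 4.3 µM for BRD-K17311666, 4.1 µM for BRD-K90919562 and 0.015 to 10 µM for the named inhibitors. The named inhibitors were averaged as 8 hydroxamic acids, which bind the zinc of the enzyme through their hydroxamate group, and 3 ortho-amino anilides. At 6 and 24 h the anilide arrays lay in batches 4 to 6, except MS-275 in beta-TC3 at 24 h (4 to 10). BRD-K22912318 was in batches 4, 8, 9 and 10, so few batches were shared. In beta-TC3 at 24 h all ITF-2357 arrays were of batch 10. In alpha-TC1 at 24 h SAHA, scriptaid and CI-994 had 2 arrays each. Each comparison with DMSO uses the same DMSO arrays, so the changes are given side by side. At 6 h the hydroxamic acids as a mean changed 6011 genes in alpha-TC1 and 5936 in beta-TC3, the anilides 3141 and 3473, BRD-K17311666 4207 and 4446, and BRD-K90919562 4238 and 4469. At 24 h the counts were 5954 and 5096, 5169 and 5162, 3473 and 2842, and 1587 and 1131 in that order. A mean over several compounds has a smaller error than 1 compound, so these counts are not on the same footing. For Rras in alpha-TC1 at 6 h the changes were 3.51 with BRD-K22912318, 3.41 with the hydroxamic acids, 0.22 with the anilides, 3.35 with BRD-K17311666 and 3.38 with BRD-K90919562.

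At 6 h in alpha-TC1 the direct test found 1 gene that differed between BRD-K22912318 and the hydroxamic mean, Timm10, a chaperone of mitochondrial import, by 0.42 (0.00847% of genes, adjusted p = 0.0364). Its call was lost without any 1 of the arrays, at 0.39 to 0.44. The 95% interval of the difference lay within 1 log2 unit of 0 for 99.9% of genes, and the median distance from the estimate to either bound was 0.23. At an unadjusted p under 0.05, 711 genes differed. In beta-TC3 at 6 h 1094 genes differed (9.27%), 460 higher and 634 lower than with the hydroxamic acids, or 435 without replicate 1 and 724 without replicate 3. There Crabp2, a carrier of retinoic acid, changed by 0.51 (not called) against 2.98, a difference of -2.47 (SE 0.222, adjusted p = 2.04e-13), and Rsad2 by 1.08 against 2.54, a difference of -1.46 (SE 0.161, adjusted p = 3.73e-10). Nkx2-2 fell by 1.75 against 2.77 with the hydroxamic mean, a difference of 1.02 (SE 0.186, adjusted p = 5.98e-05), which without the batch term was 0.86 and not called. Without the batch term 437 genes were called, and with scriptaid and LBH-589 left out of the mean 1667.

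At 24 h the difference from the hydroxamic acids was wider, with 1111 genes in alpha-TC1 (9.41%) and 1900 in beta-TC3 (16.1%). These counts were 512 and 454 in alpha-TC1 without replicate 1 and without replicate 3, and 1156 in beta-TC3 without replicate 3. With scriptaid and LBH-589 left out, 2373 differed in alpha-TC1. G6pc2, which was not called at 24 h with BRD-K22912318, was at -2.81 with the hydroxamic acids in alpha-TC1 and -1.60 in beta-TC3, differences of 3.04 (SE 0.248, adjusted p = 9.06e-15) and 1.38 (SE 0.174, adjusted p = 6.49e-09). All 23 mitosis genes were called higher than with the hydroxamic mean in beta-TC3 and 18 in alpha-TC1, beside 7.57% and 3.46% of all genes called higher, with median differences of 0.62 and 0.52 beside -0.03 and -0.02 for all genes. Cdc20 was at -1.17 in alpha-TC1 against -2.39, a difference of 1.22 (SE 0.200, adjusted p = 1.17e-05). Hba-a1 and Crabp2 rose in beta-TC3 with the hydroxamic mean, by 2.02 and 2.37, and were at -0.19 and -0.29 with BRD-K22912318, differences of -2.21 (SE 0.242) and -2.66 (SE 0.242).

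The ortho-amino anilides differed at more genes at 6 h than at 24 h in both lines: 3837 in alpha-TC1 (32.5%) and 4059 in beta-TC3 (34.4%) at 6 h, and 2592 (22.0%) and 3625 (30.7%) at 24 h. In alpha-TC1 at 6 h the difference was 3.28 for Rras (SE 0.141, adjusted p = 3.81e-31), 2.39 for Gsta4 (SE 0.254) and -3.62 for G6pc2 (SE 0.205, adjusted p = 2.64e-24), which was at 0.73 with the anilides. At 24 h Rras was at 3.36 with BRD-K22912318 and 3.27 with the anilides and Gsta4 at 4.67 and 4.84, while Selenop was at 2.63 and 5.63, a difference of -3.00 (SE 0.315, adjusted p = 9.36e-12). G6pc2 differed in the other direction at 24 h, by 2.21 (SE 0.282, adjusted p = 3.82e-09).

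Between BRD-K22912318 and the code-named compounds BRD-K17311666 and BRD-K90919562 few genes differed at 24 h. Against BRD-K17311666 the only call in alpha-TC1 was Tcaf2, a regulator of a cold-sensing channel, at -1.30 (SE 0.247, 0.00847% of genes, adjusted p = 0.019). In beta-TC3 2 genes were called (0.0169%), the thymic protease Prss16 at -0.99 (SE 0.187, adjusted p = 0.0158) and the heat shock gene Hspa1b at -0.75 (SE 0.156, adjusted p = 0.0467). Tcaf2 was lost without replicate 1 or 3, at -1.11 and -1.36, and the beta-TC3 pair without replicate 2 or 3, at -1.01 and -0.95 for Prss16 and -0.67 and -0.58 for Hspa1b, though without replicate 3 another gene was called. The 95% interval lay within 1 log2 unit of 0 for 98.5% and 99.0% of genes and within 0.5 for 65.1% and 75.9%, so differences of that size remain possible for the rest. At an unadjusted p under 0.05, 479 and 751 genes differed.

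Against BRD-K90919562, 57 genes differed in alpha-TC1 (0.483%), 28 higher and 29 lower, and 111 in beta-TC3 (0.940%), 18 higher and 93 lower. In alpha-TC1 at 24 h Rsad2 was at 4.41 with BRD-K22912318 and 2.48 with BRD-K90919562, a difference of 1.93 (SE 0.465, adjusted p = 0.0398), Insl6 at 1.70 and 0.44, a difference of 1.26 (SE 0.300), and Metrn at 1.78 and 0.65, a difference of 1.13 (SE 0.241, adjusted p = 0.018). In beta-TC3 Tk1 was at -1.02 and 0.01, a difference of -1.03 (SE 0.217, adjusted p = 0.00668), and Hdac11 at 0.79 and 0.13, a difference of 0.67 (SE 0.174, adjusted p = 0.0344). Without the batch term the counts were 1 and 10. The alpha-TC1 count was 2 without replicate 2 and 28 without replicate 3, and the beta-TC3 count 182 without replicate 1 and 17 without replicate 3. Rsad2 was lost whichever array was left out, at 1.71 to 2.06, Insl6 and Metrn without replicate 2, at 0.84 each, Tk1 without replicate 3, at -0.75, and Hdac11 without replicate 2, at 0.68, or 3, at 0.45.

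**Figure D5:**
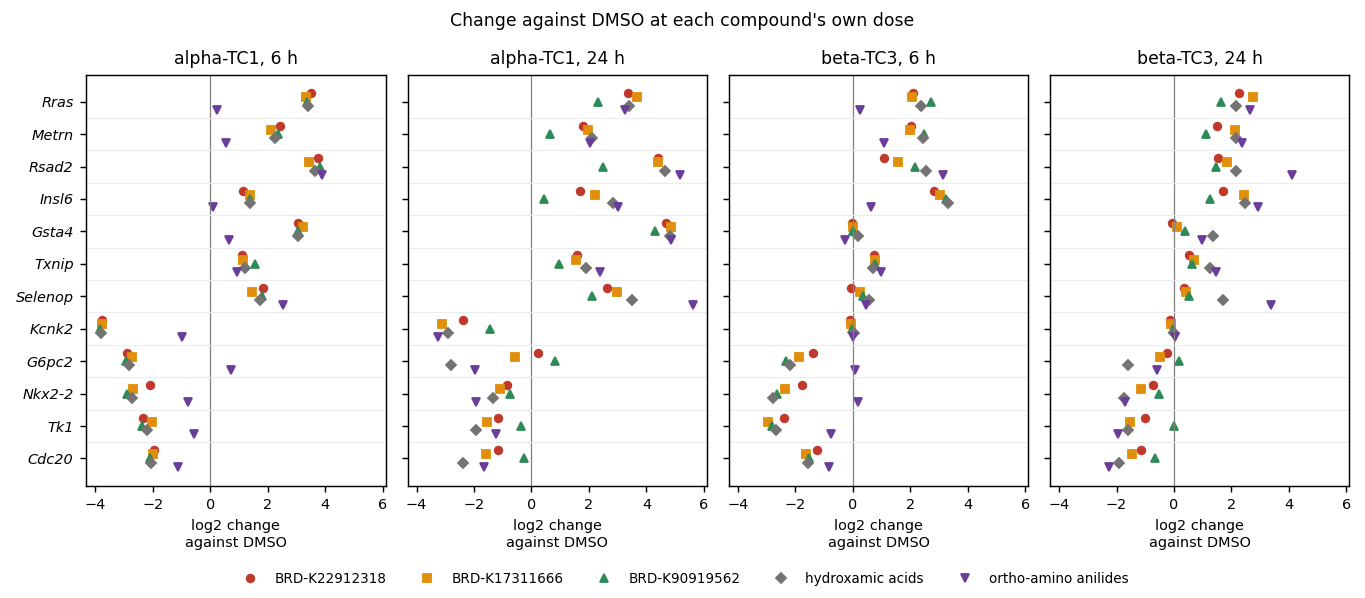
Change in log2 intensity against DMSO of selected genes with BRD-K22912318, the mean of 8 hydroxamic acids, the mean of 3 ortho-amino anilides, BRD-K17311666 and BRD-K90919562 in each line at 6 and 24 h, at unequal doses. In alpha-TC1 G6pc2 is at -2.89 with BRD-K22912318 at 6 h and at 0.23 at 24 h, while with the hydroxamic acids it is at -2.83 and -2.81.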

How the data were processed

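Expression was measured on 594 one-colour arrays of 2 mouse lines. The values are intensities, deposited by the authors for 22716 probe sets. The normalization was RMA per the submitters' processing notes, with its version not given in the sources used here. The values lay between 3.962 and 13635.1, on a linear scale, so their log2 was taken. Array medians were 4.363 to 4.729 on that scale. In the platform annotation 18003 probe sets had 1 gene symbol, 287 several and 4426 none. The probe set with the highest mean stood for each of 11807 genes, and 4150 genes had more than 1. No column of per-sample values was left out (0 unused). The number of arrays limits the precision.

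For each line and time, limma 3.58.1 (R 4.3.3) was fitted to the arrays of all compounds and DMSO, with a term for each compound and a batch term, and Benjamini-Hochberg adjustment over all 11807 genes. A gene is called at an adjusted p under 0.05. "Rose" and "fell" are used only of called genes. Differences between lines and times were contrasts of joint fits. Each hydroxamic acid or anilide had equal weight in its class mean. Within-batch values are a compound array minus the mean of the DMSO arrays of its batch. Promoters came from RefSeq. Python 3.11.15, numpy 2.4.6 and matplotlib 3.10.9 were also used.

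Named genes were the 10 largest rises and falls per comparison without overlap between compound and DMSO arrays (no overlap condition for the other comparisons), members of the gene lists, and a fixed set of single genes. The text names a part of these. For those named as largest changes against DMSO, the lack of overlap was a condition of the choice. The members, lists and genes were chosen with earlier results of these data known, and the list counts are descriptions. Replicate numbers of the titles were checked as pairs through the correlation of deviations from group means. They did not pair lines or times (-0.44 to 0.36). In beta-TC3 at 24 h BRD-K22912318 correlated with BRD-K17311666 (0.32, 0.19 and 0.30) and BRD-K90919562 (0.34, 0.14 and 0.37) array by array, and the replicate block was fitted. In alpha-TC1 the values were -0.11, 0.35 and 0.33, and 0.14, -0.23 and 0.37. Batch was not removed from the deviations, and the part of shared batches was not tested. The alternatives were no batch term, the array plate as a random block, other scalings, a filter on low genes, the mean of probe sets, fewer arrays in the fit, and leaving out each compound replicate. On simulated data with 200 changed genes the fit recovered 59.7% of changes of 0.5, 95.5% of 1 and 100% of 2 log2 units in alpha-TC1 at 24 h, and 67.2%, 100% and 100% in beta-TC3 at 6 h. Changes of 0.5 and 1 were recovered at 44.8% and 88.1% for the line difference at 24 h. For the time difference in beta-TC3 the shares were 41.8% and 97.0%, and against BRD-K17311666 in beta-TC3 at 24 h 49.3% and 95.5%. Between 5 and 13 unchanged genes were called, and the simulated noise was independent between genes.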

Additional observations from a re-analysis of the deposited data

Results flagged for a closer look

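Among the 87 named genes tested in the 10 DMSO arrays of beta-TC3 at 6 h, 3 had 1 array far from the others, a gap that chance gives in about 1 in 20 groups. The highest DMSO array was at 6.23 for Clp1, with the next at 5.99, at 3.40 for Kcnk2, with the next at 3.12, and at 13.49 for Ins2, with the next at 13.27. The other DMSO groups hold more than 10 arrays and the compound groups 3, so they were not examined in this way.

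The change with BRD-K22912318 differed between the lines for 1 gene at 1 h, 1640 at 6 h and 1420 at 24 h, and between 24 and 6 h for 1354 genes in alpha-TC1 and 1485 in beta-TC3, each by a test of the difference itself. At 6 h the alpha-TC1 change minus the beta-TC3 change on the log2 scale was 1.37 for Rras, 2.60 for Rsad2, 3.14 for Gsta4, 2.03 for Selenop, -3.86 for Kcnk2, -2.34 for Deptor, 2.77 for Tacc2, -1.70 for Insl6, -1.54 for G6pc2, -1.83 for Irx1, 1.35 for Usp18, 0.89 for Ctsl, 0.48 for Hdac1, 1.00 for Eaf2, 2.18 for Rbpms and -1.18 for Cela1. At 24 h the same difference was 1.46 for Rras, 3.22 for Rsad2, 4.69 for Gsta4, 2.77 for Selenop, 3.13 for Hba-a1, -2.57 for Kcnk2, -1.77 for Deptor, 2.76 for Tacc2, 1.68 for Usp18, 1.14 for Tapbp, 1.49 for Ctsl, 1.00 for Psmb8, 1.66 for Fos, 1.55 for Cd68, -0.86 for Kat2b, 1.69 for Rbpms and -2.19 for Cela1.

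In alpha-TC1 the change at 24 h minus that at 6 h was 3.01 for G6pc2, 1.20 for Nkx2-2, 1.65 for Neurod1, 1.14 for Isl1, 1.16 for Tk1, -1.25 for H2ax, 1.60 for Rrm2, -1.56 for Dhcr7, 1.74 for Pou3f4, -1.91 for Chac1, 2.20 for Hba-a1, 1.70 for Gsta4, 0.64 for Tm7sf2, 0.91 for Gstk1 and -1.04 for Pfkl. In beta-TC3 it was 0.99 for G6pc2, 0.92 for Nkx2-2, 0.90 for Neurod1, 0.79 for Isl1, 1.40 for Tk1, -0.77 for H2ax, 1.39 for Rrm2, 0.89 for Pdx1, 1.03 for Pax4, 0.93 for Tm7sf2, -1.08 for Insl6, -1.22 for Hsd17b7 and 1.49 for Gstk1.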

How the results depend on the processing

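The arrays of BRD-K22912318 of batch 4, replicate 2 in alpha-TC1 and replicate 3 in beta-TC3, had the largest changes at 24 h. With 3 arrays a group, calls near the threshold moved with single arrays, and DMSO arrays of genes such as Ldha were far apart. Of 4649 single-gene values under the alternatives, 4354 kept direction and side of the threshold, 217 lost the call, 54 gained one and 24 without a test moved beyond the replicate spread. None called changed sign. Where named genes had several probe sets, these disagreed in sign by over 0.1 in 9 of 132 comparisons. The causes were not tested.

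The 6 h counts against DMSO, and the alpha-TC1 count at 24 h, stayed within 1.5 times of the value given under every alternative. At 1 h the counts were 5 in alpha-TC1 and 4 in beta-TC3 without the batch term, 28 and 17 with the array plate as a random block, and in beta-TC3 1 with only the compound and DMSO arrays and 4 with only the batches of the compound. Leaving out 1 replicate gave 4 to 11 and 3 to 12. In beta-TC3 at 24 h only the compound and DMSO arrays gave 1316, and leaving out 1 replicate 1275 to 1894. The line difference at 1 h was 2 with a batch term for each line and 0 without any 1 replicate. Leaving out 1 replicate gave 963 to 1392 for the line difference at 6 h, 818 to 1100 at 24 h, and 671 to 1395 for the time difference in alpha-TC1. The time difference in beta-TC3 was 800 without the batch term.

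Against the hydroxamic acids, alpha-TC1 at 6 h gave 0 with the replicate block, 0 without the batch term, 4 without scriptaid and LBH-589, and 0 to 4 without 1 replicate. Without scriptaid and LBH-589 alpha-TC1 at 24 h gave 2373 and beta-TC3 at 6 h 1667, and the latter was 437 without the batch term. Leaving out 1 replicate gave 454 to 1037, 435 to 794 and, in beta-TC3 at 24 h, 1156 to 1788. Against BRD-K17311666 the alpha-TC1 count was 0 with the replicate block and 0 to 1 without 1 replicate, and the beta-TC3 count 0 without the batch term and 0 to 3 without 1 replicate. Against BRD-K90919562 the alpha-TC1 count was 18 with the replicate block, 1 without the batch term and 2 to 47 without 1 replicate, and the beta-TC3 count 10 and 17 to 182. In beta-TC3, where same-numbered arrays correlated weakly, the replicate block gave 2 and 117 calls. With the block the line differences were 1, 1667 and 1464 genes.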

Other observations

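The other gene lists gave the following counts with BRD-K22912318. Of all genes 19.5% rose and 14.9% fell in alpha-TC1 at 6 h and 17.2% and 15.7% in beta-TC3, and at 24 h 10.5% and 12.9%, then 9.13% and 8.85%. Of 22 measured neuronal genes 4 rose and 5 fell in alpha-TC1 at 6 h and 5 and 3 in beta-TC3, and at 24 h 5 and 3, then 3 and 2. Of 18 regulated secretion genes 3 rose and 2 fell, then 2 and 2, at 6 h, and 4 and 1, then 1 and 3, at 24 h. Of 18 genes of TGF-beta and Notch signalling and of differentiation 4 rose and 6 fell in alpha-TC1 at 6 h and 1 and 3 in beta-TC3, and 1 rose and none fell, then 1 rose and 2 fell, at 24 h. In alpha-TC1 at 6 h Id3, an inhibitor of helix-loop-helix factors, fell by 1.09 and Hes6, a target of proneural factors, rose by 1.22.

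Of 11 heat shock genes 2 rose and 3 fell in alpha-TC1 and 3 rose in beta-TC3 at 6 h. At 24 h 2 fell in alpha-TC1, and 5 fell with no rise in beta-TC3, where 8.85% of all genes fell. Of 12 histone genes 5 rose and 3 fell, then 3 and 3, at 6 h, and 2 and 4, then 1 and 3, at 24 h. Of 8 acetyltransferases and bromodomain genes 1 rose and 3 fell in alpha-TC1 at 6 h, and 4 fell with no rise in beta-TC3, where 15.7% of all genes fell. At 24 h 3 fell in alpha-TC1 and 1 in beta-TC3. Of 7 G1 cyclin genes 2 rose and 2 fell, then 1 and 3, at 6 h, and 1 and 1, then 1 fall, at 24 h. Of 12 germline genes none rose, and 1 fell in alpha-TC1 and 2 in beta-TC3 at 6 h. Of 13 imprinted genes 4 and 2 fell at 6 h, and at 24 h 3 rose and 1 fell in alpha-TC1 and 2 fell in beta-TC3. Of 10 genes of other islet hormone cells 1 fell in beta-TC3 at each time. Their list medians lay between -0.44 and 0.15.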
